A study of Homo sapiens with 29 samples.

Results

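ATP-binding cassette (ABC) genes encode proteins that use ATP to move lipids, sterols, bile salts, drug conjugates, haem precursors and peptides across membranes. The members described here are the genes of the deposited count table whose symbol is ABC, a letter from A to G and a number. There were 46 of them among the 60675 genes listed, and 41 were among the 20494 genes tested after a filter on low counts. All 46 were found in the GENCODE 29 annotation of GRCh38, 45 as protein coding genes and ABCC13 as a transcribed pseudogene.

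The messenger RNA of WM239A, a human cell line from a melanoma metastasis, was sequenced in 29 libraries of 10 groups to compare continuous with interrupted inhibition of BRAF. The vector group (3 libraries) carried an empty vector and had no drug. Every other group overexpressed BRAF-V600E, an oncogenic form of a MAPK pathway kinase, and the untreated group (3 libraries) of these cells had no drug. LGX818 (encorafenib), an inhibitor of that kinase, was given at 500 nM.

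Cells were sampled after 20 h of drug (3 libraries) and after 7 days of drug, called week 1 (3 libraries). The continuous arm stayed on drug to days 14, 21 and 28, called weeks 2, 3 and 4 (3, 3 and 2 libraries). The intermittent arm alternated blocks of 7 days and had no drug at week 2, drug again at week 3 and none at week 4 (3 libraries each). The vector and untreated groups are labelled day 0, and no group was kept without drug throughout to a later day. In comparisons with untreated cells, drug history and days in culture therefore cannot be told apart. The same holds for comparisons of drug groups sampled at different times. Among the comparisons that differ in drug, only that of week 2 off with week 2 continuous was of the same day. How the transgene was driven and whether the cells came from 1 clone are not given in the sources used here. The labels number the replicates without saying whether they were separate cultures, so p-values measure the spread between these libraries, which may be technical.

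The family is grouped by what its members carry. ABCA proteins and some ABCG proteins handle phospholipids and sterols, with ABCA1 and ABCG1 passing cholesterol to lipoprotein particles. Several ABCB and ABCC proteins and ABCG2 export drugs, bile salts and conjugates through the plasma membrane, and they are studied in tumours because some of them lower the level of medicines in the cell. Other ABCB proteins work in mitochondria or lysosomes and ABCD proteins in peroxisomes or lysosomes, while ABCE and ABCF proteins have no membrane part and act on ribosomes and translation.

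Promoter windows from RefSeq (GRCh38.p14, 250 bases before to 50 after the start site) were found for 35 of the 46 members, and ABCB5 was not among them. The letters upstream of the start are printed for 3 members whose levels carried the patterns described below, with 10 further bases for ABCC2. ABCA9 peaked at 20 h of drug, ABCC2 was above its untreated level in every later group and ABCA1 was highest at week 2 off and lowest at week 3 back on drug. Capitals mark exact matches, on either strand, to CACGTG (the E-box that MITF, MYC and related factors can bind), CATGTG (the core of the M-box) or TATAAA.
ABCA9, chr17:69060928-69061177, minus strand: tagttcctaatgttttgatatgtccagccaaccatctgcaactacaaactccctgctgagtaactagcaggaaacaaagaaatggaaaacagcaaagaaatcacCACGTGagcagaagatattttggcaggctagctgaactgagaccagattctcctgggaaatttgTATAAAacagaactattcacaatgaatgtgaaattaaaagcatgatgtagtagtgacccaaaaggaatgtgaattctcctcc
ABCC2, chr10:99782390-99782649, plus strand: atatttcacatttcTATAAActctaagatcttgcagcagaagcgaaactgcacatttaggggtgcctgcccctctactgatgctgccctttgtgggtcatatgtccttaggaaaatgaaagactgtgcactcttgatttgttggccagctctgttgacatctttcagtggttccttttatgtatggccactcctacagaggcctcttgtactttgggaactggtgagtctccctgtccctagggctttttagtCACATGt
ABCA1, chr9:104928156-104928405, minus strand: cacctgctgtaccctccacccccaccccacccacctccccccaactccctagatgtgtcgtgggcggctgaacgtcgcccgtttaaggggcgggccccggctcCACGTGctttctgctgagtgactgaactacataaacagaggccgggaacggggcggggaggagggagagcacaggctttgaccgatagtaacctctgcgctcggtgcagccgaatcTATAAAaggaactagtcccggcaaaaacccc

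Counting from 1 at the start site, CACGTG began at position -146 in ABCA9 and at position -147 in ABCA1. The capitals CACATG in ABCC2 are CATGTG read on the other strand and began at position 4. TATAAA began at -31 in ABCA1, -82 in ABCA9 and -236 in ABCC2. No match overlapped another in these windows. Over the whole windows, CACGTG was found in 4 of 35 members (11.4%) and in 7.26% of all 35116 windows. CATGTG was found in 3 members (8.57%) against 11.1% of all windows, and TATAAA in 5 members (14.3%) against 11.5%. Where a member had several windows the first listed was used. These matches describe letters only and show no binding.

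Libraries held 22934039 to 35804978 counts, with 8.57% to 20.7% of counts on mitochondrial genes. The replicate comparison set 4 libraries apart from both others of their group, namely week 2 continuous replicate 3, week 2 off replicate 3, week 3 continuous replicate 1 and week 3 on replicate 1. Each call count below was recomputed without these 4 together. The melanocyte lineage markers SOX10, PMEL, MLANA, TYR, S100B and PAX3 were present in every group, with a summed mean of 359 to 5869 CPM (counts per 1e+06 counts of the tested genes, scaled by TMM factors), highest at 20 h and lowest at week 2 continuous. In bulk RNA, fewer cells of a kind and less RNA per cell cannot be told apart, and this holds for every difference below.

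In each of the 11 comparisons the share of ABC genes called was at or above the share over all genes tested. After 20 h, 14 of the 41 members tested rose and 9 fell (56.1%), against 53.7% of all genes tested, of which 28.4% rose and 25.2% fell. At week 1 against untreated, 14 rose and 15 fell (70.7%), against 54.2% of all genes, of which 27.5% rose and 26.7% fell. At week 1 against 20 h, 12 rose and 18 fell (73.2%), against 57.7% of all genes, of which 28.6% rose and 29.1% fell. The median log2 change of the members was 0.22 at 20 h (0.06 over all genes tested), -0.19 at week 1 against untreated (0.00) and -0.47 at week 1 against 20 h (-0.02). These 3 comparisons share libraries with each other.

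Off drug at week 2, 17 members were higher and 13 lower than under continuous drug (73.2%), against 55.2% of all genes, of which 27.3% were higher and 27.9% lower. Against untreated cells 18 rose and 10 fell (68.3%), against 60.0% of all genes (31.2% higher and 28.8% lower). Back on drug at week 3, 11 members rose and 19 fell from week 2 off (73.2%), against 56.3% of all genes (27.8% higher and 28.5% lower). Off drug again at week 4, 16 members rose and 4 fell from week 3 on (48.8%), against 45.5% of all genes (23.1% higher and 22.3% lower). Between the 2 on-drug states of the intermittent arm, week 3 on against week 1, 7 members rose and 11 fell (43.9%), against 31.1% of all genes (16.6% higher and 14.5% lower). From week 1 to week 4 of continuous drug, 11 members rose and 11 fell (53.7%), against 41.0% of all genes (21.1% higher and 19.9% lower). Fewer members were called when either of the 2 week 4 continuous libraries was left out. The share over all genes in those runs is not given here. BRAF-V600E against vector gave 2 higher and 12 lower (34.1%), against 17.0% of all genes (7.04% higher and 9.92% lower). The median log2 changes, members first and all genes second, were 0.15 and -0.04 for week 2 off against continuous, -0.22 and 0.01 for week 3 on against week 2 off, 0.19 and -0.02 for week 4 off against week 3 on, 0.16 and 0.01 for week 4 against week 1 of continuous drug, -0.14 and 0.03 for week 3 on against week 1, 0.16 and 0.02 for week 2 off against untreated, and -0.20 and 0.00 for BRAF-V600E against vector.

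**Figure D1:**
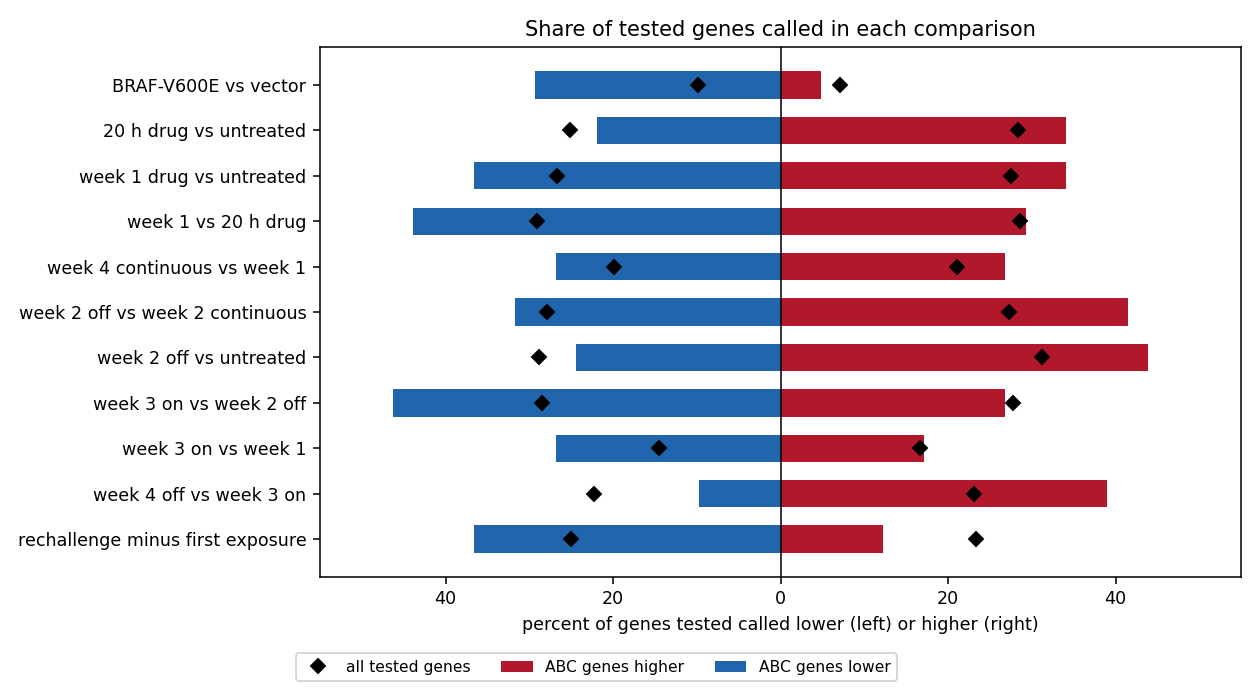
Percent of tested genes called lower (left, blue) or higher (right, red) at an adjusted p of 0.05 in each of the 11 comparisons, for the 41 ABC genes (bars) and for all 20494 genes (diamonds). The lower bar reaches furthest past its diamond for BRAF-V600E against vector, where 12 members were lower, and the higher bar for week 4 off against week 3 on, where 16 members rose.

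Member levels differed widely in how far they moved. Of 37 tested members with counts in every group, 12 differed more than 10-fold between their highest and lowest group mean and 8 less than 2-fold, with a median of 3.40-fold. The highest group was week 2 off for 10 members and 20 h of drug for 9. On the scale of CPM per kilobase of exon, averaged over the groups, high levels were those of ABCF2 (31.3), ABCF1 (28.6) and ABCE1 (12.8) and of the conjugate exporters ABCC2 (10) and ABCC1 (9.57). These per-length levels of ABCF2 and ABCE1 are uncertain. Of ABCF2's exonic length, 45.8% overlaps another gene on the same strand. Of ABCE1's longest transcript, 31.2% is at least 95% identical to other loci.

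**Figure D2:**
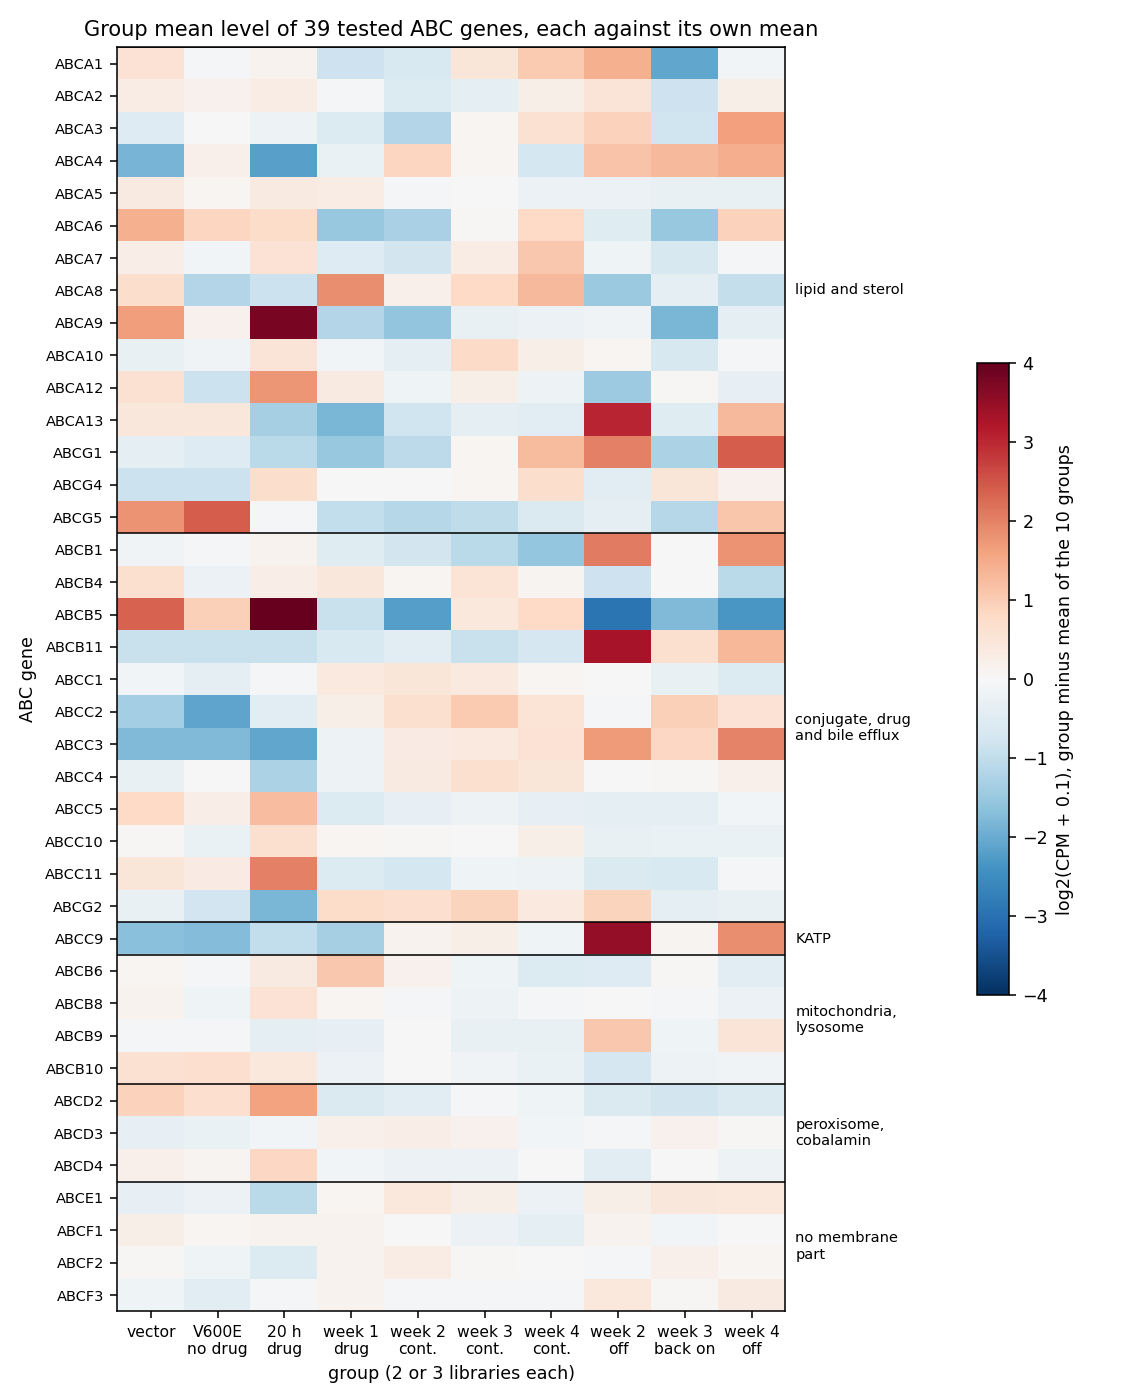
Group mean level of 39 of the 41 tested ABC genes (rows, by function) in the 10 groups (columns), as log2(CPM + 0.1) minus the gene's own mean over the groups, with red above and blue below that mean. ABCB5 and ABCA9 are darkest red at 20 h of drug, and ABCA13, ABCB11 and ABCC9 at week 2 off.

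The exporters of the plasma membrane included 12 tested members. The summed level of these and of the untested ABCC6 and ABCC12 was 246 ± 10.7 CPM untreated and 444 ± 2.21 CPM at 20 h (SD, n = 3 each). It stood at 336 ± 10.4 CPM at week 1 and at 335 ± 2.49 CPM in the drug-free vector cells (n = 3 each). Of the 12, 1 was higher and 6 were lower in untreated BRAF-V600E cells than in vector cells (7.04% and 9.92% of all genes). At 20 h, 7 of the 12 rose and 2 fell (28.4% and 25.2% of all genes), and at week 1, 6 rose and 2 fell against untreated cells (27.5% and 26.7% of all genes).

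ABCB5, a transporter studied as a marker of melanoma cell subsets, had the widest range of the members with counts in every group. It measured 58.4, 64.7 and 65.7 CPM at 20 h of drug, against 2.64, 2.85 and 1.78 CPM in the untreated libraries. Every 20 h library was far above every untreated one, and ABCB5 rose 25.8-fold (log2 4.69 ± 0.25 SE, adjusted p = 2.53e-16). At week 1 it measured 0.655, 0.433 and 0.724 CPM, 105-fold lower than at 20 h (log2 -6.71 ± 0.30 SE, adjusted p = 1.88e-18) and 4.07-fold lower than untreated (adjusted p = 1.55e-05). All 3 week 1 libraries were below all untreated ones, so the rise at 20 h had turned into a fall by day 7.

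Under continuous drug ABCB5 measured 0.247, 0.305 and 0 CPM at week 2, then 2.30, 1.27 and 1.40 CPM at week 3 and 1.88 and 2.43 CPM at week 4. Week 4 was 3.59-fold above week 1 (log2 1.85 ± 0.39 SE, adjusted p = 0.00027) and both its libraries were within the range of the untreated ones. Off drug the gene stayed low, at 0.0419, 0.0715 and 0.105 CPM at week 2 and 0.170, 0.217 and 0.10 CPM at week 4. Week 2 off was 30.9-fold below untreated (log2 -4.95 ± 0.56 SE, adjusted p = 5.07e-09). BRAF-V600E overexpression alone went with a 2.73-fold lower level than vector (log2 -1.45 ± 0.26 SE, adjusted p = 9.22e-05), where vector libraries held 7.04, 5.80 and 7.16 CPM.

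Of the 6 melanocyte lineage markers, 5 rose and none fell at 20 h against untreated (28.4% and 25.2% of all genes). At week 1 against untreated, 1 rose and 3 fell (27.5% and 26.7% of all genes). PMEL, a pigment granule protein, averaged 2717 CPM at 20 h against 646 CPM untreated and 90 CPM at week 1. The pigment enzyme TYR averaged 978, 344 and 130 CPM in the same groups and the melanosome protein MLANA 782, 380.4 and 38.1 CPM. SOX10, a lineage transcription factor, averaged 964, 478 and 417 CPM. Another such factor, PAX3, averaged 276, 38.9 and 66.9 CPM and was thus above untreated at week 1, unlike ABCB5. S100B averaged 149.6, 166 and 159 CPM and did not pass the test at either time. Whether these genes and ABCB5 share a cause was not tested.

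ABCC2, an exporter of glutathione and glucuronide conjugates, was higher in each successive group of the first 7 days. It measured 15.2, 14.9 and 14.7 CPM untreated, 48.3, 45.9 and 47.6 CPM at 20 h and 79.4, 72.9 and 76.5 CPM at week 1. The 3 groups did not overlap, and the rise was 3.16-fold by 20 h (log2 1.66 ± 0.11 SE, adjusted p = 7.03e-14) and 5.09-fold by week 1 (log2 2.35 ± 0.11 SE, adjusted p = 1.14e-17). At week 3 of continuous drug it held 150, 130 and 129 CPM, its highest group mean, and at week 4 it held 95.8 and 94.4 CPM. Off drug at week 2 it measured 66.7, 60.2 and 64.3 CPM, 1.59-fold below week 2 continuous (adjusted p = 1.58e-06) and 4.25-fold above untreated (adjusted p = 2.03e-16). Back on drug it measured 107, 139 and 135 CPM, 1.99-fold above week 2 off (adjusted p = 1.09e-09) and 1.66-fold above week 1 (adjusted p = 1.05e-06). ABCC2 thus kept a level above untreated in every later library, on or off drug.

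ABCG2, an exporter of many anticancer drugs and of porphyrins, moved both ways. It measured 6.08, 5.84 and 6.44 CPM untreated and 2.89, 3.23 and 2.53 CPM at 20 h, a 2.12-fold fall (log2 -1.09 ± 0.13 SE, adjusted p = 1.5e-08). At week 1 it measured 18.9, 17.5 and 16.5 CPM, 6.12-fold above 20 h (adjusted p = 3.99e-18) and 2.88-fold above untreated (adjusted p = 1.51e-13). It was 20.5, 20.1 and 18.4 CPM at week 2 off and 7.97, 8.39 and 8.34 CPM at week 3 on. The second week of drug therefore went with a 2.39-fold fall (log2 -1.26 ± 0.10 SE, adjusted p = 6.9e-12) where the first had gone with a rise, and all week 3 on libraries were below all week 1 libraries (2.14-fold, adjusted p = 6.99e-10).

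ABCC1, an exporter of glutathione conjugates, rose from 54.3 ± 2.62 CPM untreated to 69.0 ± 2.34 CPM at 20 h (1.27-fold, adjusted p = 0.00033) and 93.1 ± 4.96 CPM at week 1 (1.71-fold against untreated, adjusted p = 3.79e-10). At week 3 on it was 57.3 ± 2.97 CPM, 1.62-fold below week 1 (adjusted p = 1.47e-08). ABCC4, an exporter of cyclic nucleotides and prostaglandins, fell 2.41-fold at 20 h, from 31.8 ± 1.44 to 13.2 ± 1.58 CPM (adjusted p = 2.96e-13), and was back at 27.9 ± 1.61 CPM at week 1. ABCC4 then rose 1.62-fold from week 1 to week 4 of continuous drug (adjusted p = 3.04e-07).

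ABCC5, an exporter of nucleotide analogues, was highest at 20 h, at 172.0, 171 and 173 CPM, against 99.0, 78.8 and 88.4 CPM untreated. Its libraries did not overlap between these groups, and it rose 1.94-fold (log2 0.95 ± 0.11 SE, adjusted p = 1.22e-08). At week 1 it measured 52.0, 51.4 and 48.4 CPM and had fallen 1.75-fold below untreated (adjusted p = 2.92e-07). ABCC11, which exports lipophilic anions, also peaked at 20 h, at 1.5 ± 0.19 CPM against 0.397 ± 0.147 CPM (3.74-fold, adjusted p = 0.00352). ABCB4, the phosphatidylcholine flippase of the bile canaliculus, rose 1.62-fold to week 1, from 27.2 ± 2.44 to 44.0 ± 1.19 CPM (adjusted p = 1.66e-07). Its highest group mean was that of the drug-free vector cells, at 50.4 ± 0.536 CPM.

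**Figure D3:**
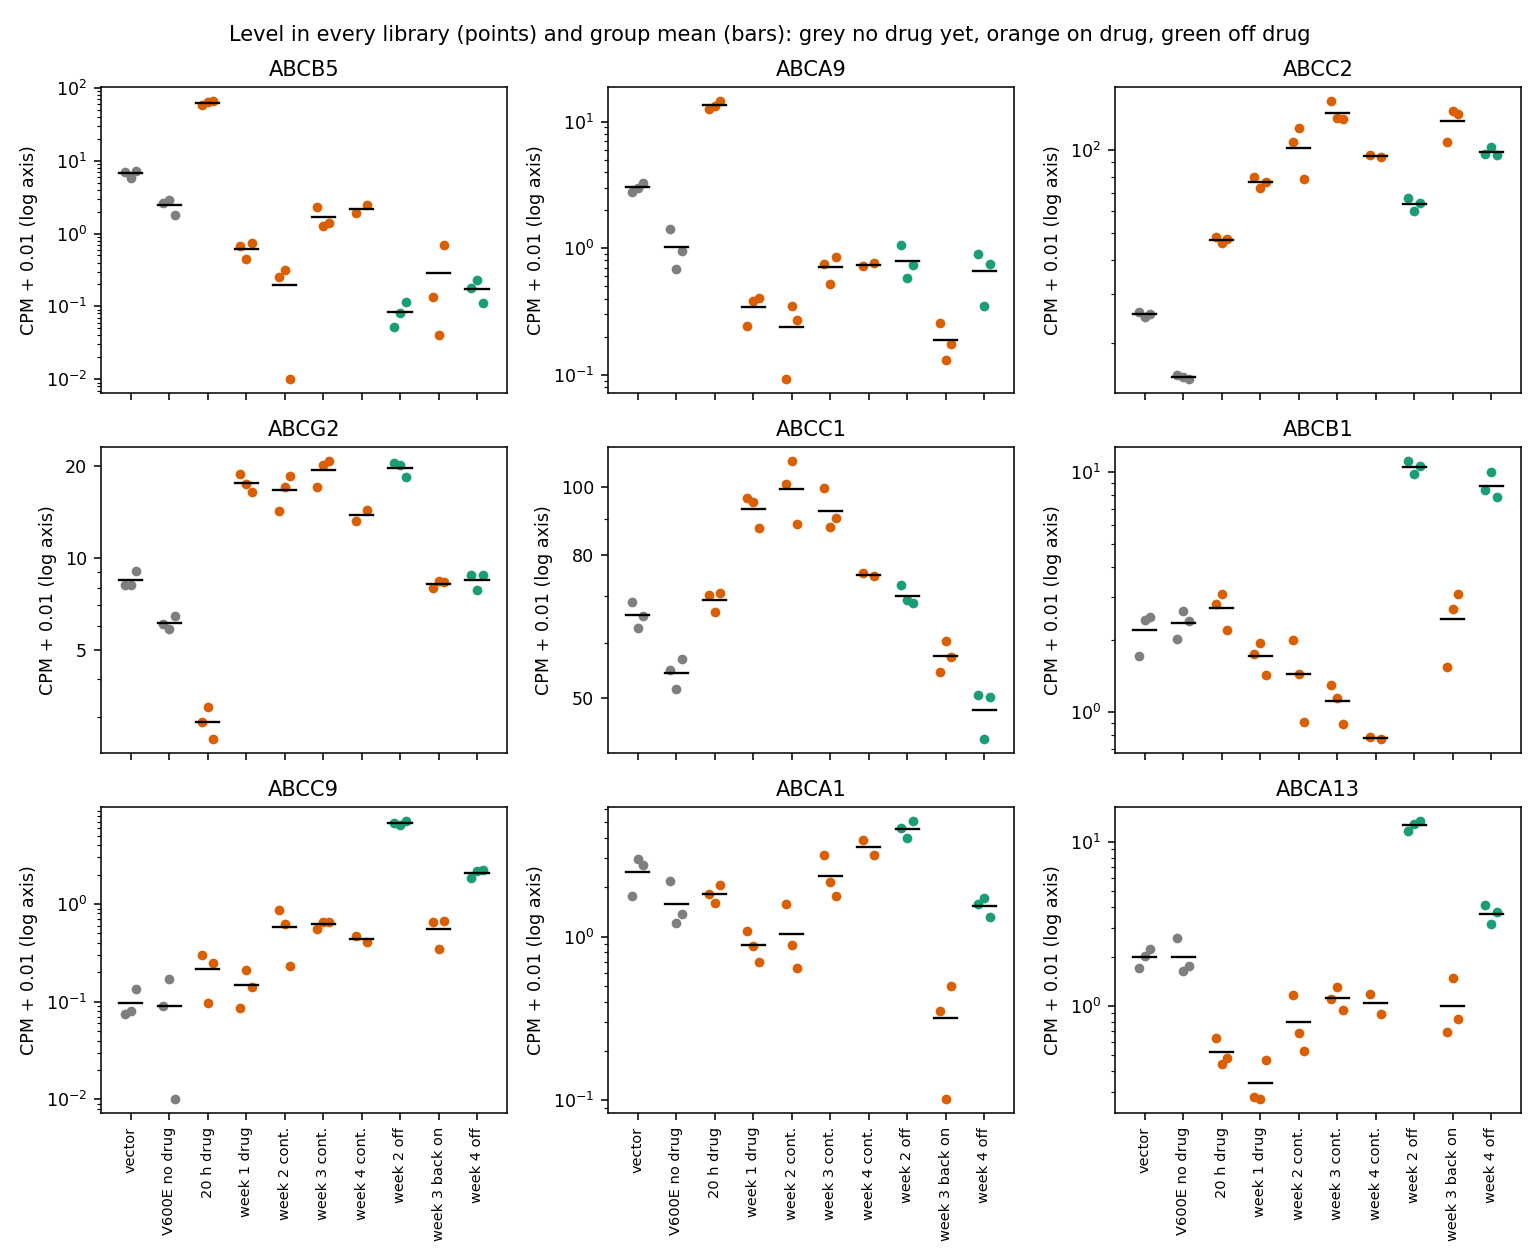
Level of 9 ABC genes in every library, as CPM + 0.01 on log axes that differ between panels, with points for libraries and bars for group means. ABCB5 and ABCA9 stand highest at 20 h, ABCC2 stays above its untreated level in all later groups, and ABCB1, ABCC9 and ABCA13 are highest in the off-drug groups.

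Of the 12 tested exporters, 4 were higher at week 2 off than under continuous drug (ABCB11, ABCB1, ABCC3 and ABCG2) and 5 were lower (ABCB4, ABCC2, ABCC1, ABCC4 and ABCC10), against 27.3% higher and 27.9% lower of all genes. Their median log2 difference was -0.20. Summed with ABCC6 and ABCC12, their level was 292 ± 7.81 CPM off drug and 377 ± 49.9 CPM on continuous drug (SD, n = 3 each). The call for ABCG2 (log2 0.24, adjusted p = 0.0421) did not hold without week 2 continuous replicate 1 (adjusted p = 0.217) and, with lower values, without week 2 off replicate 1 or 2, week 1 replicate 1 or week 4 continuous replicate 1. The call for ABCC10 (log2 -0.34, adjusted p = 0.0132) did not hold without week 2 continuous replicate 1 (0.0717) or 2 (0.201) or week 2 off replicate 1 (0.084).

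ABCB1 (P-glycoprotein), an exporter of hydrophobic drugs, measured 11.1, 9.80 and 10.6 CPM at week 2 off, against 1.98, 1.42 and 0.897 CPM at week 2 continuous and 2.0, 2.63 and 2.38 CPM untreated. All week 2 off libraries were above all libraries of both other groups. The rise was 7.37-fold against continuous drug (log2 2.88 ± 0.22 SE, adjusted p = 2.41e-12) and 4.47-fold against untreated (log2 2.16 ± 0.21 SE, adjusted p = 2.37e-10). Back on drug it measured 1.52, 2.68 and 3.08 CPM (4.33-fold lower, adjusted p = 3.35e-10) and off again 8.45, 9.98 and 7.87 CPM (3.61-fold higher, adjusted p = 7.14e-09). Under continuous drug it instead fell 2.22-fold from week 1 to week 4, to 0.770 and 0.756 CPM (adjusted p = 0.00345).

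About 5.0% of ABCB1's longest transcript is at least 95% identical to ABCB4, its neighbour on chromosome 7. The pair moved in opposite directions off drug. ABCB4 measured 17.4, 18 and 18.7 CPM at week 2 off against 33.0, 34.2 and 35.1 CPM at week 2 continuous, 1.89-fold lower (log2 -0.92 ± 0.10 SE, adjusted p = 1.55e-09). ABCB4 returned to 32.7 ± 4.87 CPM at week 3 on (1.81-fold, adjusted p = 5.69e-09) and fell 2.15-fold at week 4 off (adjusted p = 4.27e-11).

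ABCB11, the bile salt export pump of hepatocytes, had no count in the 9 libraries of the vector, untreated and 20 h groups. At week 2 off it measured 1.26, 2.04 and 1.85 CPM, at least 47.7-fold above untreated against a floor of 3 counts over the group (adjusted p = 7.56e-06). It was 0.496, 0 and 0.0656 CPM at week 3 on. The fall from week 2 off was log2 -3.16 ± 0.73 SE (adjusted p = 0.000766) and log2 -5.58 without week 3 on replicate 1, the library that held most of the remaining counts. At week 4 off it measured 0.136, 0.434 and 0.534 CPM, and the difference from week 3 on did not pass the test (adjusted p = 0.348).

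ABCC3, a basolateral exporter of bile salts and glucuronides, was near 0 before and at 20 h of drug (0.0584 ± 0.0337 CPM untreated). It measured 1.76, 1.93 and 1.32 CPM at week 2 off and 1.84, 2.11 and 2.23 CPM at week 4 off, above all libraries of the on-drug groups of the intermittent arm. Week 2 off was 25.8-fold above untreated (log2 4.69 ± 0.51 SE, adjusted p = 2.81e-09), and log2 5.28 without untreated replicate 2. Against week 2 continuous it was 2.83-fold higher (adjusted p = 0.000604). Its fall on return to drug (log2 -0.94) did not pass the test without week 2 off replicate 2 (adjusted p = 0.0795) or week 3 on replicate 2 (0.0568).

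Genes for lipid and sterol transport made up 15 of the tested members. Their summed level, with the untested ABCG8, was lower on drug than off it in the intermittent arm. It measured 107 ± 2.37 CPM untreated, 92.3 ± 3.27 CPM at week 1, 69.1 ± 9.98 CPM at week 2 continuous and 136 ± 4.40 CPM at week 2 off. It was 61.0 ± 7.69 CPM at week 3 on and 113 ± 2.0 CPM at week 4 off (SD, n = 3 each). Drug did not go with a low sum in every group, since it was 141 ± 10.3 CPM at 20 h (n = 3) and 126 ± 9.41 CPM at week 4 continuous (n = 2), with 88.8 ± 11 CPM at week 3 continuous between. Most of the sum in every group came from ABCA2. This gene alone averaged 69.3 CPM untreated, 87.9 CPM at week 2 off, 34.7 CPM at week 3 on and 72.0 CPM at week 4 continuous. Of the lipid and sterol genes, 8 of 15 were higher and 2 lower at week 2 off than on continuous drug (27.3% and 27.9% of all genes). On return to drug 9 fell and 3 rose (28.5% and 27.8% of all genes), and on the second withdrawal 9 rose and none fell (23.1% and 22.3% of all genes). The members' median log2 change was 1.03, -1.34 and 1.05 in these 3 comparisons.

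ABCA1, which loads cholesterol and phospholipid onto apolipoproteins, measured 4.57, 3.97 and 5.05 CPM at week 2 off, against 1.56, 0.880 and 0.636 CPM on continuous drug. It was 0.341, 0.0915 and 0.492 CPM at week 3 on and 1.57, 1.71 and 1.30 CPM at week 4 off. Every off-drug library of the arm was above every week 3 on library. The first withdrawal went with a 4.45-fold higher level than continuous drug (log2 2.16 ± 0.30 SE, adjusted p = 3.81e-07), the return with a 14.7-fold fall (log2 -3.88 ± 0.35 SE, adjusted p = 7.41e-11) and the second withdrawal with a 4.96-fold rise (adjusted p = 9.28e-06). The week 3 on level was 2.84-fold below week 1 (adjusted p = 0.00555, and 0.0516 without week 3 on replicate 2). The fall from untreated to week 1 was 1.79-fold (adjusted p = 0.0326) and did not pass the test without untreated replicate 1 (0.23) or without week 1 replicate 2 (0.0748) or 3 (0.131).

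ABCG1, which passes cholesterol to mature lipoprotein particles, was also lower on drug than off it in the intermittent arm. It measured 1.76, 1.65 and 0.975 CPM at week 2 off, 0.124, 0 and 0.0656 CPM at week 3 on and 1.40, 2.36 and 2.17 CPM at week 4 off. The libraries of the on-drug and off-drug groups did not overlap. The fall on return was 21.7-fold (log2 -4.44 ± 0.56 SE, adjusted p = 6.72e-08) and the second rise 29.5-fold (log2 4.88 ± 0.55 SE, adjusted p = 9.51e-09), with log2 -5.34 and 5.79 without week 3 on replicate 1. ABCG1 also rose from 3 summed counts at week 1 to 52 at week 4 of continuous drug, a ratio of 25.1 (95% counting interval 8.12 to 126; adjusted p = 5.05e-06). The fitted log2 change was 4.47, with 3.85 without week 1 replicate 2 and 5.28 without week 1 replicate 3. ABCA1 rose 4.02-fold over the same weeks, to 3.88 and 3.16 CPM (log2 2.01 ± 0.33 SE, adjusted p = 8.35e-06).

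ABCA13, a very large and little studied member, measured 11.7, 12.9 and 13.3 CPM at week 2 off, against 1.15, 0.677 and 0.523 CPM on continuous drug and 2.60, 1.62 and 1.74 CPM untreated. Its week 2 off libraries were above all others of the series. It was 16.2-fold higher than on continuous drug (log2 4.02 ± 0.25 SE, adjusted p = 9.9e-15) and fell 12.7-fold on return (log2 -3.66 ± 0.23 SE, adjusted p = 2.42e-14). In the first drug exposure ABCA13 fell 3.84-fold by 20 h (adjusted p = 2.65e-06) and 5.92-fold by week 1 (adjusted p = 3.07e-08). ABCA3, the lamellar body lipid transporter, was 1.05, 1.43 and 1.15 CPM at week 2 off, 0.217, 0.213 and 0.460 CPM at week 3 on and 2.35, 2.08 and 1.77 CPM at week 4 off. ABCA3 fell 4.07-fold on return (adjusted p = 2.24e-05) and rose 6.93-fold on the second withdrawal (adjusted p = 7.65e-08).

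ABCA2, an abundant endolysosomal lipid transporter, measured 86.0, 92.8 and 84.8 CPM at week 2 off and 32.4, 40.2 and 31.5 CPM at week 3 on. These libraries did not overlap, and the fall was 2.53-fold (log2 -1.34 ± 0.10 SE, adjusted p = 2.59e-12). ABCA7, a phospholipid transporter, peaked elsewhere, at 34.3 and 29.1 CPM in the 2 libraries of week 4 continuous, 3.0-fold above week 1 (log2 1.58 ± 0.15 SE, adjusted p = 6.36e-10). ABCA5, a lysosomal member, was one of the steadiest, between 10 and 16 CPM in all group means.

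A cluster of 5 related genes, ABCA5, ABCA6, ABCA8, ABCA9 and ABCA10, lies on chromosome 17 within positions 68867292 to 69327244 of GRCh38, and its members moved in different directions. ABCA9, of little known function, measured 12.5, 13.3 and 14.5 CPM at 20 h against 1.40, 0.681 and 0.946 CPM untreated. All 20 h libraries were above every other library of the series, and the rise was 13.4-fold (log2 3.75 ± 0.25 SE, adjusted p = 9.69e-14). At week 1 it measured 0.231, 0.375 and 0.395 CPM, 39.1-fold below 20 h (log2 -5.29 ± 0.29 SE, adjusted p = 4.6e-16). About 5.8% of its exonic length overlaps ABCA9-AS1 on the other strand.

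Its neighbour ABCA6 was 1.26 ± 0.111 CPM at 20 h against 1.39 ± 0.252 CPM untreated (adjusted p = 0.791) and was 0.182 ± 0.112 CPM at week 1, 7.32-fold below untreated (log2 -2.87 ± 0.49 SE, adjusted p = 1.03e-05). ABCA8 went the other way. It had 2 summed counts untreated and 80 at week 1, a ratio of 36.2 (95% counting interval 9.69 to 304; adjusted p = 1.88e-05). ABCA8 had no count at week 2 off, at least 6.33-fold below week 2 continuous (adjusted p = 0.00177). The fitted log2 difference of -5.76 was -4.55 without week 2 continuous replicate 2. ABCA10 did not pass the test in either drug comparison with untreated cells (log2 0.78 at 20 h and 0.08 at week 1).

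ABCA12, the ceramide transporter of keratinocytes, measured 7.45, 7.84 and 8.30 CPM at 20 h against 0.880, 1.33 and 1.32 CPM untreated, with no overlap (6.61-fold, log2 2.72 ± 0.23 SE, adjusted p = 1.28e-11). It was 2.91 ± 0.0193 CPM at week 1 and 0.751 ± 0.115 CPM at week 2 off, 2.64-fold below week 2 continuous (adjusted p = 5.61e-05). ABCG5, which forms the sterol exporter of gut and liver with ABCG8, went from 1.16, 1.10 and 1.02 CPM untreated to 0.0837, 0.0862 and 0.158 CPM at 20 h (9.59-fold lower, log2 -3.26 ± 0.59 SE, adjusted p = 3.23e-05). ABCG5 had 1 summed count at week 1 and none at week 3 on, and ABCG8 had a single count in all 29 libraries.

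ABCA4, known as the retinoid flippase of photoreceptors, was 0.960, 0.746 and 0.454 CPM untreated and 0.0418, 0.129 and 0 CPM at 20 h (12.1-fold lower, log2 -3.60 ± 0.75 SE, adjusted p = 0.000142, and log2 -4.87 without 20 h replicate 2). In the vector libraries it was 0, 0.283 and 0 CPM, so that BRAF-V600E cells were higher (log2 2.85 ± 0.65 SE, adjusted p = 0.00173). That estimate was 7.38 without vector replicate 2, the library that held all its vector counts, and 2.22 without vector replicate 1.

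ABCC9, the sulphonylurea receptor that forms potassium channels with KCNJ8 or KCNJ11, was the most changed member with counts untreated at week 2 off. It measured 6.71, 6.51 and 7.03 CPM, against 0.0800, 0.162 and 0 CPM untreated and 0.865, 0.609 and 0.224 CPM on continuous drug. No library of another group reached this level. The difference was log2 6.24 ± 0.41 SE against untreated (adjusted p = 4.51e-14, and 7.29 without untreated replicate 2) and 11.9-fold against continuous drug (log2 3.58 ± 0.31 SE, adjusted p = 3.21e-11). It fell 12.3-fold on return to drug (adjusted p = 1.62e-11) and rose 3.79-fold at week 4 off, to 1.84, 2.17 and 2.23 CPM (adjusted p = 8.71e-06). The pore genes were low there. At week 2 off KCNJ8 had 3 summed counts (0.0358 CPM) and KCNJ11 had 12 (0.149 CPM), and KCNJ8 had been at 0.537 CPM untreated. About 12.6% of ABCC9's longest transcript is at least 95% identical to sequence of other loci.

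Of the 5 tested mitochondrial and lysosomal members, 2 rose and 3 fell at week 1 against untreated, where 27.5% of all genes rose and 26.7% fell. The fall of ABCB9 (log2 -0.24) did not pass the test in DESeq2 (adjusted p = 0.0623) or without most single libraries (up to 0.209, without week 1 replicate 3), nor did the rise of ABCB8 (log2 0.27) without week 1 replicate 2 (0.0667). ABCB10, a mitochondrial inner membrane protein linked to haem synthesis, measured 27.8, 27.5 and 28.5 CPM untreated, 16.0, 13.8 and 14.5 CPM at week 1 and 9.01, 10.4 and 12.9 CPM at week 2 off. The 3 groups did not overlap. It was 1.90-fold lower at week 1 (adjusted p = 2.59e-08) and 2.59-fold lower at week 2 off than untreated (log2 -1.37 ± 0.12 SE, adjusted p = 1.03e-11).

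ABCB9, a lysosomal peptide transporter, moved the other way, with 48.5, 53.1 and 42.3 CPM at week 2 off against 22.8, 23.2 and 21.2 CPM on continuous drug (2.15-fold, log2 1.10 ± 0.10 SE, adjusted p = 6.87e-11). It was 32.5 ± 1.08 CPM at week 4 off. About 24.5% of its exonic length overlaps genes of the other strand (ARL6IP4, OGFOD2 and AC026362.1), and whether reads were counted by strand is not given in the sources used here. ABCB6, linked to porphyrin transport, rose 2.30-fold to week 1 (2.28 ± 0.191 to 5.24 ± 0.0215 CPM, adjusted p = 1.23e-05) and fell 3.24-fold from there to week 4 of continuous drug, to 1.14 and 2.10 CPM (adjusted p = 1.32e-06). Over its exonic length 54.7% overlaps AC068946.2 on the same strand, so its counts are uncertain.

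In the peroxisomal and cobalamin group, ABCD3, a peroxisomal transporter of branched and dicarboxylic acids, fell 1.26-fold off drug against continuous (41.3 ± 3.83 to 32.8 ± 1.95 CPM, adjusted p = 0.00113). ABCD4, which serves lysosomal cobalamin release, peaked at 20 h at 52.5 ± 1.75 CPM (1.64-fold above untreated, adjusted p = 3.15e-09). ABCD2, an importer of very long chain fatty acids, did not exceed 0.544 CPM in any library.

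All 4 members without a membrane part were tested. ABCE1, which recycles ribosomes, measured 66.4, 64.1 and 65.7 CPM untreated, 34.7, 40.6 and 34.3 CPM at 20 h and 82.7, 75.2 and 85.5 CPM at week 1. The 3 groups did not overlap. It fell 1.79-fold by 20 h (log2 -0.84 ± 0.09 SE, adjusted p = 1.45e-09) and was 2.22-fold above that level at week 1 (adjusted p = 1.07e-12). ABCF2 fell 1.31-fold at 20 h (adjusted p = 1.26e-06) and rose 1.63-fold from there to week 1 (adjusted p = 8.01e-12). ABCF3, an ATPase that acts with ribosomes, was 59.5, 61.8 and 52.1 CPM at week 2 off against 32.8, 32.3 and 32.5 CPM untreated (1.78-fold, adjusted p = 7.57e-12). ABCF1 stayed within 99.8 to 150 CPM in all group means and fell 1.41-fold from week 1 to week 4 of continuous drug (adjusted p = 5.1e-07).

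The first and second weeks of drug were compared as a difference of differences, the change from week 2 off to week 3 on minus the change from untreated to week 1. Each of these 2 changes has libraries of its own. It was called for 20 members (48.8%), against 48.3% of all genes (23.3% higher and 25.0% lower), 5 with a more positive and 15 with a more negative second response, with a median of -0.27 over the members and -0.02 over all genes. ABCG2 had changed by log2 1.53 in the first and -1.26 in the second week (difference -2.78 ± 0.15 SE, adjusted p = 5.21e-16). For ABCC9 the responses were 0.72, which did not pass the test, and -3.62 (difference -4.33 ± 0.79 SE, adjusted p = 2.95e-05, and -5.39 without untreated replicate 2). For ABCC3 they were 2.52 and -0.94 (difference -3.45 ± 0.70 SE, adjusted p = 0.000131, and -4.05 without untreated replicate 2).

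ABCA1 fell by log2 0.84 in the first and by 3.88 in the second week (difference -3.04 ± 0.50 SE, adjusted p = 7.1e-06). ABCB1 changed by -0.47 and -2.11 (difference -1.65 ± 0.32 SE, adjusted p = 5.89e-05), and the first of these did not pass the test. ABCC2 rose both times, by 2.35 and 0.99 (difference -1.36 ± 0.15 SE, adjusted p = 5.18e-09). In the other direction, ABCB10 had responses of -0.92 and 0.46 (difference 1.39 ± 0.16 SE, adjusted p = 1.74e-08) and ABCC5 of -0.81 and 0.00 (difference 0.82 ± 0.16 SE, adjusted p = 7.08e-05). The value for ABCB5 (3.84 ± 0.91 SE, adjusted p = 0.000809) was 2.06 with an adjusted p of 0.151 without week 3 on replicate 3, which held 0.689 CPM against 0.124 and 0.0305 CPM in the others. The second response of ABCB5 by itself (log2 1.82) did not pass the test. The starting levels, untreated and week 2 off, also differed, as did the days in culture, and their part in these differences was not tested.

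**Figure D4:**
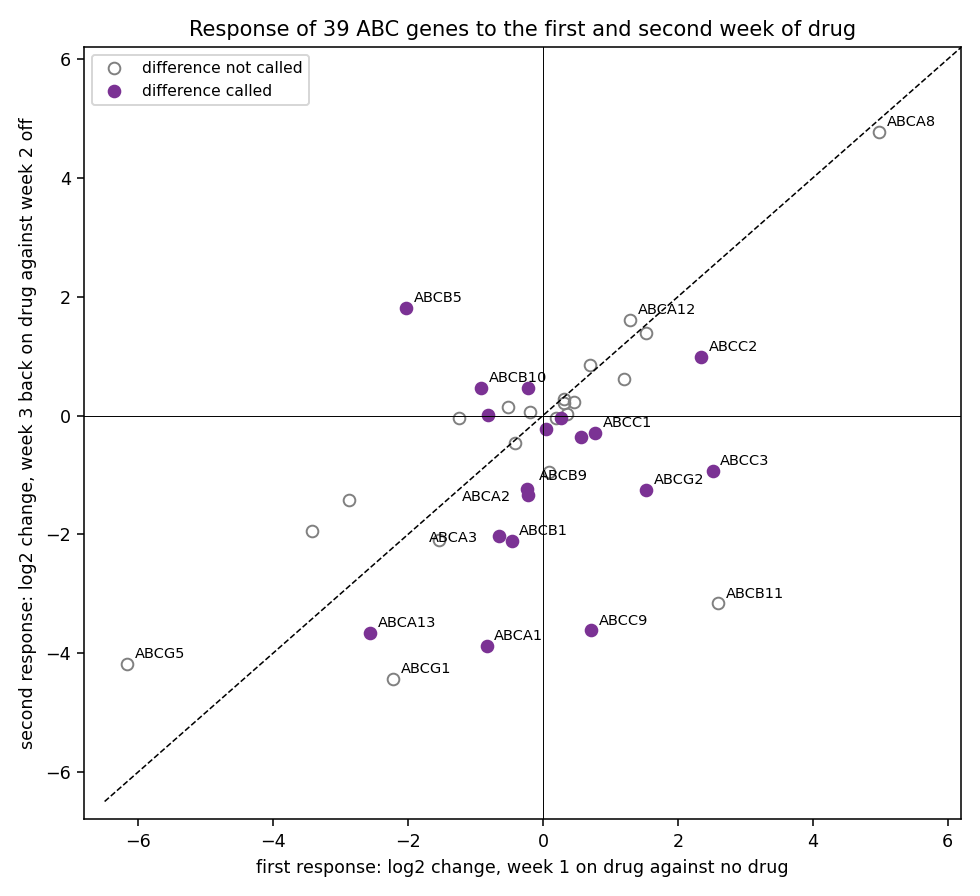
Log2 change of 39 of the 41 tested ABC genes in the first week of drug (horizontal, week 1 against untreated) and in the second (vertical, week 3 back on drug against week 2 off), with filled points where the difference between the 2 passed the test and a dashed line of equal response. ABCG2, ABCC9 and ABCC3 lie right of 0 and below it, and ABCB5 and ABCB10 lie left of 0 and above it. The first response of ABCC9 and the second of ABCB5 did not pass the test.

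Members with almost no counts are ABCC13 (0 counts in all 29 libraries), ABCG8 (1), ABCC8 (8), ABCC6 (60) and ABCC12 (70), and these 5 were not tested. ABCC6, whose longest transcript is 21.0% shared with its pseudogenes ABCC6P1 and ABCC6P2, had its highest mean at week 4 continuous (0.314 CPM). ABCC12 had no count in the vector, untreated and 20 h groups and averaged 0.249 CPM at week 4 off. ABCD2, ABCG4, ABCB11, ABCG5 and ABCA8 were tested but had only 75 to 224 counts over the series.

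ABC genes under other symbols were looked at as a list of 3. TAP1 and TAP2, which carry peptides into the endoplasmic reticulum for antigen presentation, rose against untreated at week 1 and at week 2 off. TAP1 averaged 16.8 CPM untreated, 36.9 CPM at week 1, 54.3 CPM at week 2 continuous and 109 CPM at week 2 off (log2 2.69 ± 0.14 SE against untreated, adjusted p = 6.81e-17). CFTR, a chloride channel of the family, did not exceed a group mean of 0.324 CPM.

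A list of 14 genes for sterol uptake, storage and its regulation moved in both directions. At week 2 off against continuous drug 8 were higher and 4 lower (27.3% and 27.9% of all genes), with a median log2 change of 0.31. The lysosomal cholesterol carriers NPC2 and NPC1 averaged 866 and 380 CPM at week 2 off against 121 and 118 CPM on continuous drug (adjusted p = 1.9e-18 and 7.58e-17). NR1H3, the sterol-sensing receptor LXR-alpha, averaged 4.54 and 4.65 CPM there and did not pass the test (adjusted p = 0.839). The related receptor NR1H2 (LXR-beta) was more abundant and higher off drug. It averaged 95.6 CPM at week 2 off (libraries 83.5 to 105 CPM) and 60.7 CPM on continuous drug (56.1 to 63.7 CPM). APOE, a lipid acceptor for ABCA1, averaged 248 CPM untreated, 43.3 CPM at week 1, 4.36 CPM at week 2 continuous and 22.6 CPM at week 2 off (log2 2.38 against continuous drug, adjusted p = 3.51e-14).

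Of 11 tested genes for the response to foreign and oxidising compounds, 10 rose and none fell at week 1 against untreated (27.5% and 26.7% of all genes), with a median log2 change of 0.78. HMOX1, a haem-degrading enzyme, rose by log2 4.85 (5.91 to 171 CPM, adjusted p = 2.58e-23) and TXNRD1, a thioredoxin reductase, by log2 2.41 (364 to 1938 CPM, adjusted p = 3.9e-24). The receptor NR1I2 had no count in 8 of the 10 groups. For ribosome recycling and initiation, the list beside ABCE1 and the ABCF genes, 9 of 12 fell and 1 rose at 20 h (25.2% and 28.4% of all genes), and 9 rose and 1 fell from 20 h to week 1 (28.6% and 29.1%). Of 12 peroxisomal partners, 10 rose and none fell at 20 h (28.4% and 25.2% of all genes). The list for mitochondrial haem and iron-sulphur genes was split at week 2 off against untreated, with 5 higher and 3 lower of 12, where 31.2% of all genes were higher and 28.8% lower.

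Markers of other cell types also differed between the groups. The summed mean of 8 fibroblast markers was 57.0 to 73.4 CPM in the vector, untreated, 20 h and off-drug groups, 314 CPM at week 1, 776 CPM at week 3 on and 1190 to 2481 CPM in the continuous groups, most of it COL1A1 (2179 CPM at week 4). The 3 endothelial markers summed to 4.78 and 5.49 CPM at weeks 2 and 4 off and to at most 0.845 CPM elsewhere, with PECAM1 and VWF present and CDH5 at 0 in both off-drug groups. The 5 leukocyte markers summed to 4.90 and 9.70 CPM off drug, almost all of it LYZ (4.72 and 9.31 CPM), with PTPRC at 0.0709 and 0.205 CPM. The 4 epithelial markers summed to 16.7 CPM at 20 h and to 41.1 to 127 CPM elsewhere, almost all of it KRT18 and KRT8, with EPCAM at 0 in 9 of 10 groups. Their part in the ABC gene results was not tested.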

How the data were processed

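Messenger RNA libraries were sequenced and deposited by the authors as 1 table of raw gene counts. Per the submitters' processing notes, Trimmomatic 0.32, HISAT2 2.0.3, SAMtools 0.1.18, HTSeq 0.6.1 and GRCh38 were used. The annotation release and the strand setting are not given in the sources used here. The table holds no row without a gene. Its week 3 intermittent columns are named off drug, whereas the sample labels say on drug, and they were mapped by week, schedule and replicate.

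One edgeR 4.0.16 quasi-likelihood model with TMM factors was fitted to all 29 libraries and the 20494 genes kept by filterByExpr, with Benjamini-Hochberg adjustment over all of them and a threshold of 0.05 (R 4.3.3). CPM are counts per kept-gene library size after TMM. Standard errors are the log2 change over the root of F. Intervals on summed counts cover counting error only. Overlaps with other genes come from GENCODE 29. The fit was tested on simulated data. Alternatives were DESeq2 1.42.0, other size factors, no filter, only the groups compared, a replicate block and leaving out libraries.

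The named genes are up to 6 largest rises and 6 largest falls per comparison plus a fixed panel of 14 members. Others, such as ABCC5, were chosen after their values were seen. The members and lists were chosen with earlier results of these data known. Results for some members are not reported here, although the counts include them.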

Additional observations from a re-analysis of the deposited data

Results flagged for a closer look

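For 20 of 41 ABC genes (48.8%), of which 18 are described, the second response to drug (week 3 on against week 2 off) differed from the first (week 1 against untreated) by the test of the difference itself, in edgeR's quasi-likelihood fit with Benjamini-Hochberg adjustment. Over all genes tested the share was 48.3%, so the count is near the background. The second response was the more positive one, on the log2 scale, for ABCB5 by 3.84, ABCB10 by 1.39, ABCC5 by 0.82 and ABCD4 by 0.69. The difference was -4.33 for ABCC9, -3.45 for ABCC3, -3.04 for ABCA1, -2.78 for ABCG2 and -1.65 for ABCB1. It was -1.37 for ABCA3, -1.36 for ABCC2, -1.13 for ABCA2 and -1.10 for ABCA13. It was -1.06 for ABCC1, -1.003 for ABCB9, -0.92 for ABCF3, -0.31 for ABCB8 and -0.27 for ABCF1. ABCB5 gave 2.06 (adjusted p = 0.151) without week 3 on replicate 3. The ABCA3, ABCA13 and ABCB8 differences also lost their call when single libraries were left out, with adjusted p up to 0.133 without week 1 replicate 2, 0.221 without week 1 replicate 3 and 0.214 without week 2 off replicate 2, in that order.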

How the results depend on the processing

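Counts of ABC genes called in the 11 comparisons are given in the order BRAF-V600E against vector, 20 h against untreated, week 1 against untreated, week 1 against 20 h, week 4 against week 1 continuous, week 2 off against continuous, week 2 off against untreated, week 3 on against week 2 off, week 3 on against week 1, week 4 off against week 3 on, and the second minus the first response. Leaving out each library in turn gave ranges of 11 to 16, 21 to 23, 24 to 31, 26 to 31, 13 to 24, 26 to 30, 23 to 29, 27 to 32, 15 to 18, 18 to 20 and 17 to 21. The 13 came without week 4 continuous replicate 1, which leaves 1 library there that is assumed to vary like the other groups. DESeq2 called 16, 23, 28, 30, 23, 29, 30, 28, 18, 20 and 20. With the replicate number as a block the counts were 14, 23, 29, 30, 21, 30, 28, 30, 18, 20 and 20, and ABCF2 from week 1 to week 4 was the call lost. Libraries with the same number did not deviate together (correlations -0.214 to 0.112, over 0.1 in 1 of 29 pairs). A check on deviations within groups of 2 or 3 libraries cannot exclude that the numbers pair them. Without the 4 libraries that stood apart, an alternative chosen after the data were seen, the counts were 17, 23, 32, 31, 26, 29, 27, 28, 19, 22 and 21. No ABC gene called in the fit reported here changed direction in any alternative run. Genes with few counts (ABCA8, ABCB11, ABCD2, ABCG1, ABCG5) had the least certain sizes of change. Shares over all genes are not given for these alternative runs. Whether a changed count of ABC genes exceeds the change over all genes therefore cannot be read from them.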
